A study of Mus musculus with 18 samples.

Results

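The genes described here encode activation markers and costimulatory receptors of T cells. They are Cd69, Cd44, Cd28, Icos, Cd27, Tnfrsf4, Tnfrsf9, Tnfrsf18 and Tnfrsf1b, taken by symbol from the deposited count table, where all 9 were found among 18522 genes. Naive CD8+ T cells were isolated by negative selection from lymph nodes and spleens of male wild-type C57BL/6N mice aged 8 to 12 weeks. They were activated on plates coated with antibodies against CD3 and CD28, with IL-2 and IL-12 added, so CD28 itself was engaged in every group. The media were Asn restriction, in RPMI medium that lacked Asn, and control medium with Asn, both with dialysed serum. Total RNA was taken at 4, 24 and 72 h after activation from 3 libraries per medium and time, which gives 6 groups and 18 libraries, and no unstimulated cells were among them. The study treats the 3 libraries of a group as experimental replicates of 1 experiment, so the p-values below measure the spread between libraries.

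A T cell that meets antigen receives a signal through its antigen receptor and a costimulatory signal, of which CD28 is the best known source. CD69 appears on the surface within hours of activation and retains the cell in lymphoid tissue, and CD44, a receptor for hyaluronan, stays high on effector and memory T cells. ICOS belongs to the CD28 family, while CD27, OX40 (Tnfrsf4), 4-1BB (Tnfrsf9), GITR (Tnfrsf18) and TNFR2 (Tnfrsf1b) belong to the TNF receptor superfamily, which binds ligands of the TNF family and recruits TRAF adaptors to activate NF-kB and promote survival.

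Library totals, ERCC spike-ins included, lay between 11576889 and 22172185 counts. The CD8 genes Cd8a and Cd8b1 and the general T cell markers Cd3d, Cd3e, Cd3g and Trac were at 57.5 CPM or more in every library. CPM here are counts scaled to the total of gene counts. Cd4 did not exceed 1.57 CPM and Foxp3 1.90 CPM. In control 72 h replicate 2, mitochondrial genes held 0.439% of counts, against 0.741% to 0.989% in the other libraries. Its counts also differed more from those of its group mates (chi-square per degree of freedom 11.5 and 16.3) than those of the other 16 replicate pairs from each other (2.12 to 6.29). No 2 libraries of the same group were alike enough to be 1 library deposited again. Libraries of different groups were not compared in this way.

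All 9 genes were expressed in all 18 libraries, with 167 to 72462 counts each, and all passed the filter on low counts that left 14871 genes for testing. Their responses to Asn restriction did not share 1 direction. Against control, Cd69 was higher at all 3 times, by 2.58-fold at 4 h, 1.89-fold at 24 h and 1.52-fold at 72 h. At 4 h Tnfrsf18 (2.15-fold), Tnfrsf1b (1.81-fold) and Icos (1.46-fold) were higher too, whereas Tnfrsf9 and Cd28 were lower. At 24 h Tnfrsf4 fell to 0.509 of the control level, and at 72 h Cd44 was 1.63-fold higher while Tnfrsf18, Tnfrsf9, Cd27 and Tnfrsf1b were lower. These calls are from edgeR's quasi-likelihood test at a Benjamini-Hochberg adjusted p under 0.05 over all genes tested.

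Read against all genes, the number of calls was as follows. At 4 h 4 of the 9 genes were higher and 2 lower, where 23.6% of all genes tested were higher and 22% lower. At 24 h 4 were higher and 3 lower, beside 27.5% and 28% of all genes. At 72 h 3 were higher and 4 lower, beside 25.4% and 23.8% of all genes. The 3 Asn-restricted libraries did not overlap the 3 control libraries for 8 of the 9 genes at 4 h (all but Cd44), 6 at 24 h (all but Cd28, Icos and Tnfrsf18) and 7 at 72 h (all but Cd28 and Tnfrsf4). Of all genes, 54.7%, 61.3% and 53.6% did not overlap at these times. For 4 of the 9 genes (Cd69, Icos, Tnfrsf9 and Tnfrsf1b) the test was passed at each time, beside 21.2% of all genes. For 6 of the 9 (Cd44, Icos, Cd27, Tnfrsf9, Tnfrsf18 and Tnfrsf1b) the call was higher at 1 time and lower at another, beside 30% of all genes.

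**Figure D1:**
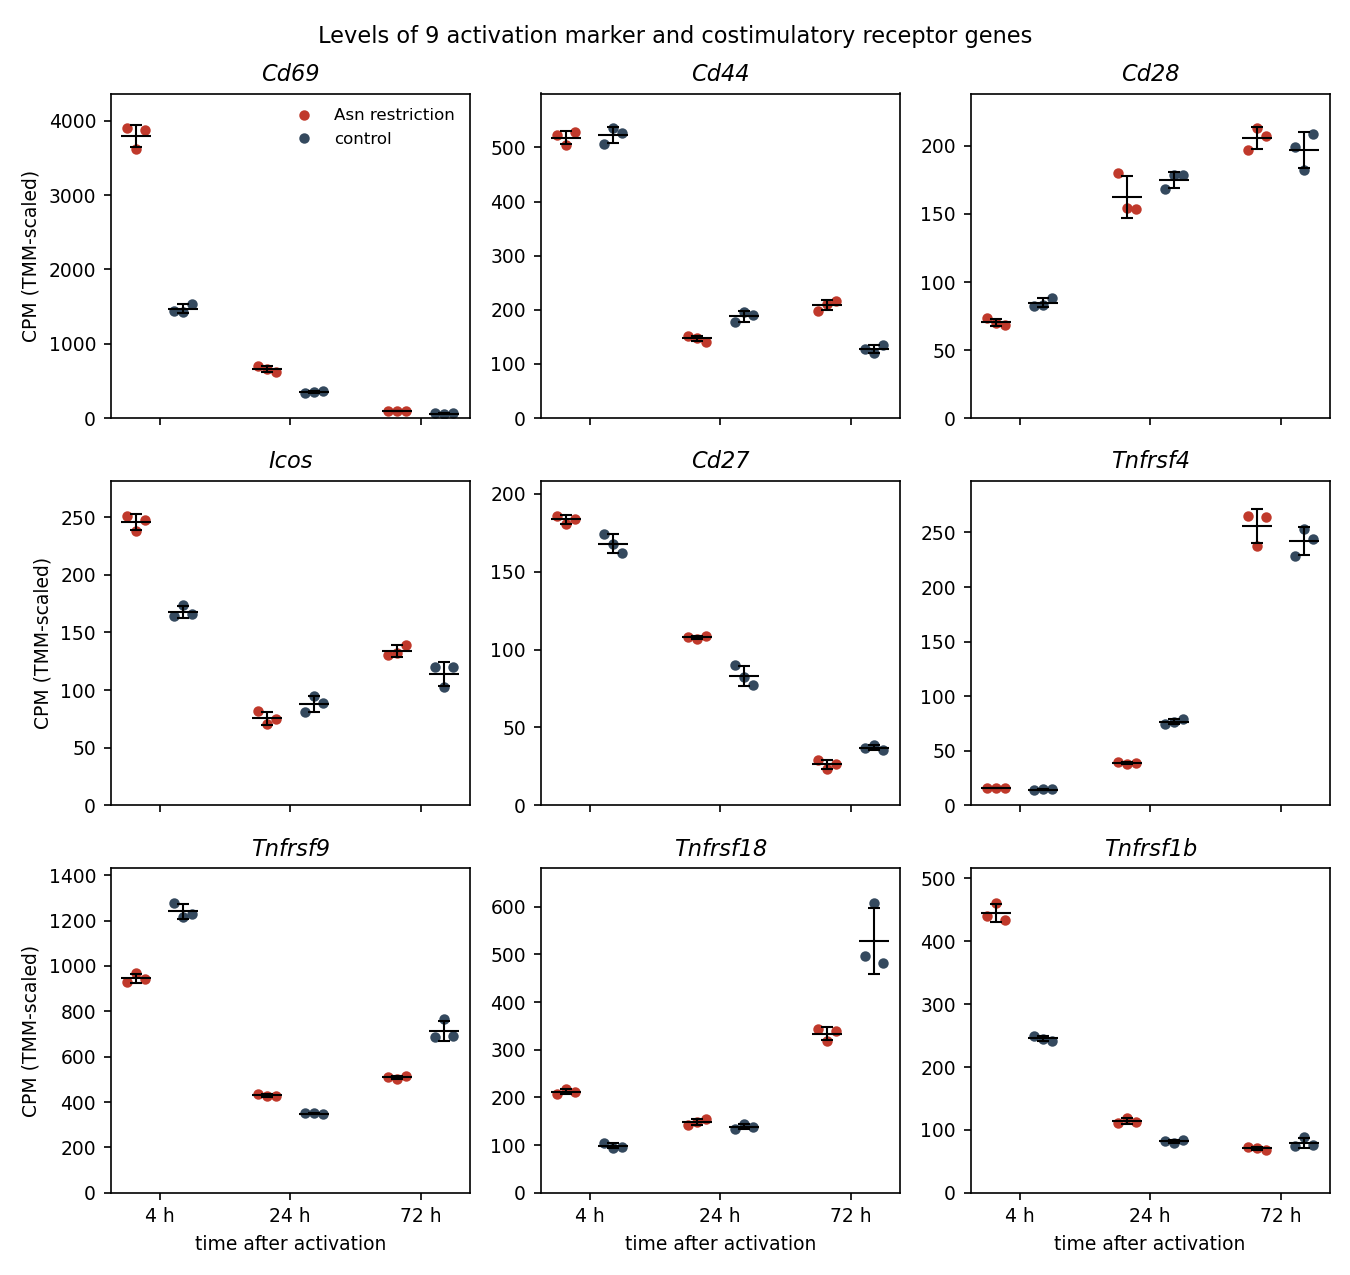
Level of each gene in every library, in CPM scaled by TMM factors, with time after activation on the x axis, Asn restriction in red left of control in blue, and black bars for the mean ± SD of 3 libraries. Cd69 lies higher under Asn restriction at each time, with means of 3798, 658 and 94.0 CPM at 4, 24 and 72 h, while Tnfrsf9 lies lower at 4 and 72 h and higher at 24 h.

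Cd69 (chr6:129267325-129275436, minus strand, GRCm38), the early activation marker, had the widest range of the 9 genes. At 4 h it had 3899, 3623 and 3871 CPM in Asn-restricted libraries and 1438, 1429.7 and 1542 CPM in control libraries, where CPM here and below is scaled by TMM factors. At 24 h it had 699, 657 and 619 CPM in Asn-restricted libraries and 334, 347 and 362 CPM in control libraries, and at 72 h 91.4, 96.0 and 94.7 CPM in Asn-restricted libraries and 65.5, 50.1 and 69.3 CPM in control libraries. The 6 groups stood in 1 order without any overlap between neighbours, falling with time in both media and with Asn restriction above control at each time. The log2 fold change of Asn restriction over control was 1.37 ± 0.06 (SE, adjusted p = 7.43e-18) at 4 h, 0.92 ± 0.06 (adjusted p = 1.07e-13) at 24 h and 0.60 ± 0.07 (adjusted p = 1.96e-08) at 72 h. At 4 h 6.52% of all genes moved by more in either direction. The difference between media narrowed with time, by 0.45 ± 0.09 on the log2 scale between 4 and 24 h (adjusted p = 0.000131) and by 0.32 ± 0.09 between 24 and 72 h (adjusted p = 0.00453). Under Asn restriction the level at 24 h was 0.173 of that at 4 h, and the level at 72 h was 0.143 of that at 24 h. In control these ratios were 0.237 and 0.178. With spike-in scaling the Cd69 difference between media still passed the test at all 3 times, but neither step of the narrowing did (adjusted p = 0.884 and 0.621). Without control 72 h replicate 2, the lowest of its group for Cd69, the log2 fold change at 72 h was 0.48 (adjusted p = 5.36e-10). The change of the medium difference from 24 to 72 h was then -0.44 (adjusted p = 4.38e-07).

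Cd44 (chr2:102811141-102901665, minus strand), the hyaluronan receptor that marks activated and memory T cells, had its highest level at 4 h with little difference between media. Its levels at 4 h were 524, 503 and 527 CPM in Asn-restricted libraries and 506, 535 and 526 CPM in control libraries, and these libraries overlapped (log2 fold change -0.01 ± 0.05, adjusted p = 0.877). By 24 h its levels were 152, 148 and 141 CPM in Asn-restricted libraries and 177, 197 and 191 CPM in control libraries, every restricted library lying below every control one (log2 fold change -0.35 ± 0.05, adjusted p = 5.72e-07). Its levels at 72 h were 199, 211 and 217 CPM in Asn-restricted libraries and 127, 119.8 and 136 CPM in control libraries, with no overlap and the opposite direction (log2 fold change 0.71 ± 0.05, adjusted p = 6.15e-13). The change of the medium difference from 24 to 72 h, 1.06 ± 0.07 on the log2 scale (adjusted p = 7.19e-14), was close in size to that of Tnfrsf4 below. It came with opposite time courses, since from 24 to 72 h Cd44 went up 1.42-fold under Asn restriction and down to 0.679 of its level in control. The lower level at 24 h did not pass the test with spike-in scaling (log2 fold change -0.12, adjusted p = 0.665), while the higher level at 72 h did.

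Cd28 (chr1:60716800-60773359, plus strand), the receptor of the costimulatory antibody in these cultures, passed the test for the medium at 4 h alone. At 4 h it had 73.4, 70.02 and 68.2 CPM in Asn-restricted libraries and 82.5, 83.2 and 88.6 CPM in control libraries, without overlap (log2 fold change -0.27 ± 0.06, adjusted p = 0.000872). At 24 h it had 180.2, 154 and 153 CPM in Asn-restricted libraries and 169, 179 and 178 CPM in control libraries. At 72 h it had 197, 213 and 207 CPM in Asn-restricted libraries and 199, 183 and 209 CPM in control libraries. At both later times the libraries of the 2 media overlapped, with log2 fold changes of -0.11 ± 0.06 (adjusted p = 0.122) and 0.06 ± 0.06 (adjusted p = 0.412). The difference at 24 h passed the test when Asn restriction 24 h replicate 1, the highest of its group, was left out (-0.19, adjusted p = 0.00939). Neither step in the medium difference with time passed the test (adjusted p = 0.157 and 0.0832), although the second one did without that same library (0.25, adjusted p = 0.00826) or without control 72 h replicate 3 (0.21, adjusted p = 0.0378). Cd28 rose with time in both media. It was 2.30-fold higher at 24 h than at 4 h under Asn restriction and 2.06-fold higher in control, and 1.26-fold and 1.13-fold higher at 72 h than at 24 h. The last of these, in control, was lost when the fit left out control 24 h replicate 1 (adjusted p = 0.0625) or control 72 h replicate 3 (adjusted p = 0.0753). With spike-in scaling neither step from 24 to 72 h passed the test (0.37, adjusted p = 0.106 under Asn restriction, and 0.08, adjusted p = 0.743 in control).

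Icos (chr1:60977927-61000320, plus strand), the inducible costimulator, lies 204567 bp from Cd28 on the same chromosome and was called higher, lower and higher under Asn restriction at 4, 24 and 72 h. Its levels at 4 h were 251, 238 and 247 CPM in Asn-restricted libraries and 164, 174 and 166 CPM in control libraries, without overlap (log2 fold change 0.55 ± 0.06, adjusted p = 6.28e-09). By 24 h its levels were 81.8, 70.7 and 74.7 CPM in Asn-restricted libraries and 80.8, 94.9 and 88.9 CPM in control libraries. Here the highest restricted library lay above the lowest control one, and the log2 fold change was -0.22 ± 0.06 (adjusted p = 0.00503). Its levels at 72 h were 130.2, 132 and 139 CPM in Asn-restricted libraries and 119.96, 102 and 120.2 CPM in control libraries, without overlap (log2 fold change 0.23 ± 0.06, adjusted p = 0.00335). The 24 h call was lost when Asn restriction 24 h replicate 2 (-0.17, adjusted p = 0.0532) or control 24 h replicate 2 (-0.16, adjusted p = 0.0617) was left out, and when TMM factors were not used (-0.11, adjusted p = 0.155), and with spike-in scaling its sign turned (0.012, adjusted p = 0.974). Unlike Cd28, Icos fell between 4 and 24 h, to 0.309 of its level under Asn restriction and 0.526 in control. It then rose 1.77-fold and 1.30-fold by 72 h. The step in the medium difference was -0.77 ± 0.09 between 4 and 24 h (adjusted p = 3.61e-08) and 0.44 ± 0.09 between 24 and 72 h (adjusted p = 9.49e-05). Neither step passed the test with spike-in scaling (-0.40, adjusted p = 0.316, and 0.56, adjusted p = 0.108). Gm37039 overlaps Icos on the same strand with 4 to 116 counts per library.

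Cd27 (chr6:125232622-125237010, minus strand), a TNF receptor family member that naive T cells already carry and whose ligand is CD70, declined with time in both media. Its levels at 4 h were 186, 180.5 and 184 CPM in Asn-restricted libraries and 174, 168 and 162 CPM in control libraries. The libraries did not overlap, but the difference did not pass the test (log2 fold change 0.13 ± 0.06, adjusted p = 0.0725), although it passed when control 4 h replicate 1 was left out (0.17, adjusted p = 0.046) or limma-voom was used (adjusted p = 0.029). By 24 h its levels were 108, 107 and 108 CPM in Asn-restricted libraries and 89.8, 82.7 and 77.2 CPM in control libraries, and at 72 h 29.1, 23.4 and 26.9 CPM in Asn-restricted libraries and 37.1, 38.9 and 35.5 CPM in control libraries. Cd27 was thus higher under Asn restriction at 24 h (log2 fold change 0.37 ± 0.06, adjusted p = 4.05e-06) and lower at 72 h (-0.49 ± 0.07, adjusted p = 1.28e-06), each time without overlap. From 4 to 24 h Cd27 fell under Asn restriction with a log2 fold change of -0.77 (adjusted p = 6.76e-13). With spike-in scaling this fall did not pass the test (-0.24, adjusted p = 0.307). The level at 72 h was 0.245 of that at 24 h under Asn restriction and 0.446 in control, and this gap of -0.86 ± 0.09 on the log2 scale passed the test (adjusted p = 2.87e-09). The smaller step between 4 and 24 h (0.24 ± 0.08, adjusted p = 0.0221) was lost when any of 4 libraries was left out, namely Asn restriction 4 h replicate 2, control 4 h replicate 1, control 24 h replicate 2 and control 24 h replicate 3 (adjusted p = 0.0595, 0.0787, 0.0516 and 0.1). Vamp1 overlaps Cd27 on the opposite strand with 200 to 550 counts per library, close to the 405 to 667 counts of Cd27 at 72 h, and whether reads were counted by strand is not given in the sources used here.

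Tnfrsf4 (OX40) and Tnfrsf18 (GITR), both inducible receptors, lie 9551 bp apart on chr4, at chr4:156013843-156016612 and chr4:156026164-156028895, both on the plus strand. Tnfrsf9 (4-1BB, chr4:150914562-150946102, plus strand) is on the same chromosome. The bases before their start sites are shown because these genes, among the highest per kb at 72 h, differed in how they answered the medium. RefSeq windows (GRCm38.p6) were matched for 6 of the 9 genes, that is all but Cd69, Cd28 and Icos. Each line below gives the 250 bases before a RefSeq start site, 5′ to 3′ on the plus strand. Capitals mark matches on either strand to the NFAT core GGAAA, to the AP-1 motif TGANTCA and to the NF-kB motif. The windows are chr4:156013445-156013694 for Tnfrsf4, chr4:156026072-156026321 for Tnfrsf18, and chr4:150919905-150920154 and chr4:150927749-150927998 for the upstream and downstream start sites of Tnfrsf9. The Tnfrsf18 window reaches past the start that GENCODE gives for the gene. Both Tnfrsf9 windows lie wholly within the Tnfrsf9 gene as GENCODE gives it, downstream of its start.
Tnfrsf4: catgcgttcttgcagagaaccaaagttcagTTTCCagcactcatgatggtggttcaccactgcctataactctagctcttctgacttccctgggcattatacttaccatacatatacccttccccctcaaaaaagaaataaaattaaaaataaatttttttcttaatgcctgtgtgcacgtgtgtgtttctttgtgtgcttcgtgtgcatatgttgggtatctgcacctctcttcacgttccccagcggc
Tnfrsf18: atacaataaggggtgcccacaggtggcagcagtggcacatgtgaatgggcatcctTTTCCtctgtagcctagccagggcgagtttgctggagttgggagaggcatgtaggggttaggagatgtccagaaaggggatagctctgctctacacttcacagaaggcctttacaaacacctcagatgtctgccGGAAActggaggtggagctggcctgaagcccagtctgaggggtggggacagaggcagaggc
Tnfrsf9, upstream start: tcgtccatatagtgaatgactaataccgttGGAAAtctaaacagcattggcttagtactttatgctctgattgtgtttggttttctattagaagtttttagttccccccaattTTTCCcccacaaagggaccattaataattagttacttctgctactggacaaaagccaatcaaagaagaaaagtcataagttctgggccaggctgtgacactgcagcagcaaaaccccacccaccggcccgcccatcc
Tnfrsf9, downstream start: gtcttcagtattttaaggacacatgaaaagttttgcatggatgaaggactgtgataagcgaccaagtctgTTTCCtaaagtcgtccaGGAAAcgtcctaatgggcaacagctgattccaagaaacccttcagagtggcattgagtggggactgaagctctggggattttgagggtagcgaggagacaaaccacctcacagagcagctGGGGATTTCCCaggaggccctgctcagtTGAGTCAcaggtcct

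The GGAAA core stood 1 time in the Tnfrsf4 window, 2 times in that of Tnfrsf18, 2 times in the upstream Tnfrsf9 window and 3 times in the downstream one. It is common, being held by 55.6% of 32851 RefSeq windows of the same length. The AP-1 motif (6.75% of windows) and the NF-kB motif (3.90%) stood only in the downstream Tnfrsf9 window among the 7 windows of the 6 genes. There the AP-1 match lies at -15 to -9 from the start site, and a pair of overlapping NF-kB matches at -43 to -34 and -42 to -33 shares its bases with 1 of the GGAAA matches. The windows of Cd44 and Cd27 held 2 and 1 GGAAA cores and that of Tnfrsf1b none. These are matches of letters and not measured binding sites.

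Tnfrsf4 passed the test for the medium at 24 h alone. At 4 h it was low and did not overlap between media, with 16.2, 16.3 and 15.97 CPM in Asn-restricted libraries and 14.2, 14.9 and 14.7 CPM in control libraries. By 24 h its levels were 40.0, 37.9 and 39.3 CPM in Asn-restricted libraries and 74.9, 76.2 and 79.4 CPM in control libraries, without overlap. Its levels at 72 h were 265, 238 and 264 CPM in Asn-restricted libraries and 228, 253 and 244 CPM in control libraries, and these overlapped. The log2 fold change was 0.15 ± 0.08 at 4 h (adjusted p = 0.133), -0.97 ± 0.06 at 24 h (adjusted p = 4.36e-15) and 0.08 ± 0.05 at 72 h (adjusted p = 0.196). By 24 h the gene had risen 2.42-fold over 4 h under Asn restriction and 5.26-fold in control, and from 24 to 72 h it rose 6.54-fold under Asn restriction and 3.14-fold in control. Both steps in the medium difference passed the test, at -1.12 ± 0.10 (adjusted p = 1.18e-10) and 1.06 ± 0.08 (adjusted p = 3.78e-13). With spike-in scaling the first step no longer did (-0.74, adjusted p = 0.0514).

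Tnfrsf18 responded to Asn restriction in opposite directions at the first and the last time. At 4 h it had 207, 218 and 211 CPM in Asn-restricted libraries and 104, 94.2 and 97.1 CPM in control libraries, without overlap (log2 fold change 1.10 ± 0.07, adjusted p = 4.32e-15). At 24 h it had 142, 148 and 156 CPM in Asn-restricted libraries and 134, 144 and 138 CPM in control libraries, which overlapped (0.10 ± 0.06, adjusted p = 0.19). At 72 h it had 344, 319 and 339 CPM in Asn-restricted libraries and 497, 608 and 482 CPM in control libraries, again without overlap (-0.66 ± 0.06, adjusted p = 1.1e-10). Control 72 h replicate 2, the library that stands apart, was the highest of its group, and without it the difference was -0.55 (adjusted p = 1.54e-13). With spike-in scaling it was -0.35 and did not pass the test (adjusted p = 0.16). The 24 h difference passed the test without TMM factors (0.21, adjusted p = 0.00592). Between 4 and 24 h Tnfrsf18 fell to 0.701 of its level under Asn restriction and rose 1.41-fold in control. Between 24 and 72 h it rose 2.25-fold under Asn restriction and 3.81-fold in control. Each step in the medium difference was downward, at -1.004 ± 0.09 (adjusted p = 2.31e-10) and -0.76 ± 0.09 (adjusted p = 7.93e-09). The first step did not pass the test with spike-in scaling (-0.64, adjusted p = 0.0821). The antisense gene Gm16008 spans Tnfrsf18 but had at most 50 counts in any library, against at least 1056 for Tnfrsf18.

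Tnfrsf9, which encodes 4-1BB, a receptor known for sustaining CD8+ T cells, was called at each time with alternating signs. Its levels at 4 h were 928, 968 and 941 CPM in Asn-restricted libraries and 1277, 1217 and 1228 CPM in control libraries. By 24 h its levels were 436, 429 and 425 CPM in Asn-restricted libraries and 349.8, 350.1 and 347 CPM in control libraries, and at 72 h 511, 501 and 515 CPM in Asn-restricted libraries and 686, 766 and 691 CPM in control libraries. The media did not overlap at any time. The log2 fold change was -0.39 ± 0.04 at 4 h (adjusted p = 2.46e-09), 0.30 ± 0.04 at 24 h (adjusted p = 3.9e-07) and -0.49 ± 0.04 at 72 h (adjusted p = 2.54e-11). Under Asn restriction the level fell to 0.455 of that at 4 h by 24 h and then rose 1.18-fold by 72 h, whereas in control it fell to 0.281 and then rose 2.05-fold. The later rise under Asn restriction did not pass the test without TMM factors (0.06, adjusted p = 0.215) or with spike-in scaling (0.26, adjusted p = 0.255). The steps in the medium difference were 0.69 ± 0.06 (adjusted p = 7.67e-11) and -0.79 ± 0.06 (adjusted p = 7.74e-13), and both passed the test with spike-in scaling as well. The difference at 72 h alone did not pass the test with that scaling (-0.16, adjusted p = 0.553). Camta1 overlaps Tnfrsf9 on the opposite strand with 122 to 421 counts per library, against at least 6544 for Tnfrsf9.

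Tnfrsf1b, which encodes TNFR2, a receptor for TNF, fell between 4 and 24 h in both media and was higher under Asn restriction at the first and second times. At 4 h it had 439.6, 461 and 434 CPM in Asn-restricted libraries and 249.9, 245 and 242 CPM in control libraries (log2 fold change 0.86 ± 0.05, adjusted p = 7.04e-15). At 24 h it had 111, 119.6 and 112 CPM in Asn-restricted libraries and 82.3, 79.3 and 84.4 CPM in control libraries (0.48 ± 0.05, adjusted p = 8.08e-09). At 72 h it had 72.1, 71.7 and 68.5 CPM in Asn-restricted libraries and 74.3, 88.8 and 76.5 CPM in control libraries (-0.17 ± 0.06, adjusted p = 0.0159). No time showed overlap, but the 72 h gap is narrow and depends on single libraries. Without control 72 h replicate 2 it was -0.09 (adjusted p = 0.185), without Asn restriction 72 h replicate 3 it was -0.14 (adjusted p = 0.0836), and with spike-in scaling its sign turned (0.16, adjusted p = 0.573). The level at 24 h was 0.257 of that at 4 h under Asn restriction and 0.334 in control. From 24 to 72 h it fell to 0.618 under Asn restriction, while in control the change did not pass the test (-0.04 ± 0.06, adjusted p = 0.495), unless control 72 h replicate 2 was left out (-0.12, adjusted p = 0.0358). Both steps in the medium difference were downward, at -0.38 ± 0.08 (adjusted p = 0.00018) and -0.65 ± 0.08 (adjusted p = 2.54e-08). With spike-in scaling neither step passed the test (-0.0042, adjusted p = 0.99985, and -0.56, adjusted p = 0.108). The first also did not pass it without TMM factors (-0.15, adjusted p = 0.11).

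**Figure D2:**
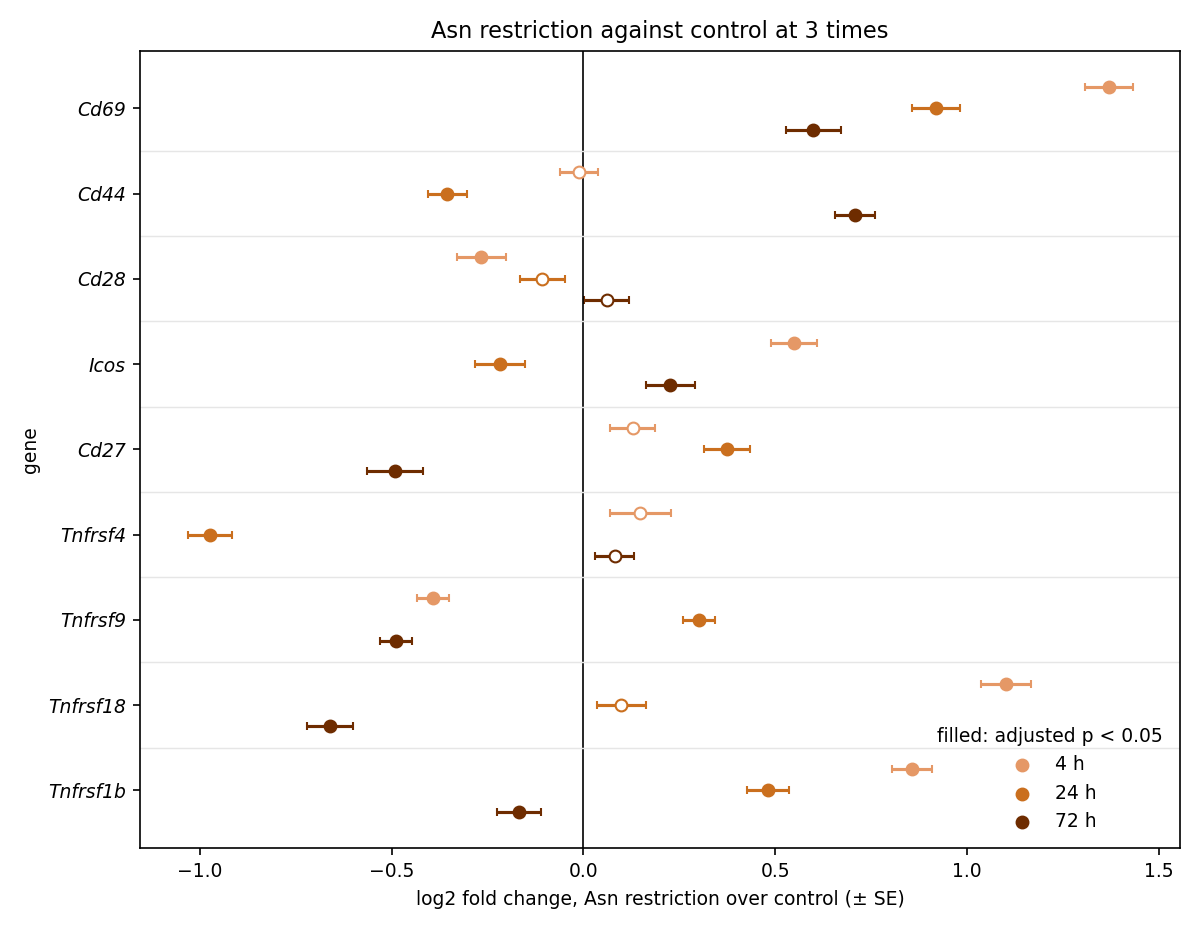
Log2 fold change of Asn restriction over control (x axis, ± SE) for each gene (y axis) at 4, 24 and 72 h in light to dark brown, with filled points for an adjusted p under 0.05 by edgeR. Cd69 stays right of 0 at all times, Tnfrsf4 leaves 0 at 24 h alone (-0.97), and Tnfrsf18 and Tnfrsf1b move leftwards with time.

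The change of the medium difference between times was tested as an interaction. Between 4 and 24 h it was passed upwards by 2 genes (Cd27 and Tnfrsf9) and downwards by 6, where 18.5% and 17.8% of all genes passed it. Between 24 and 72 h it was passed upwards by 3 genes (Cd44, Icos and Tnfrsf4) and downwards by 5, beside 29.5% and 27.7% of all genes. Cd28 was the gene that passed neither.

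Time itself moved the 9 genes in both media, and this was tested within each medium. Under Asn restriction, 2 genes (Cd28 and Tnfrsf4) were higher and 7 lower at 24 h than at 4 h, beside 34.9% and 30.9% of all genes. In control, 3 (Cd28, Tnfrsf4 and Tnfrsf18) were higher and 6 lower, beside 34.9% and 34.7%. Tnfrsf18 was the gene with opposite directions in the 2 media. At 72 h against 24 h, 6 genes were higher and 3 (Cd69, Cd27 and Tnfrsf1b) lower under Asn restriction, beside 35.3% and 35.5% of all genes. In control 5 (Cd28, Icos, Tnfrsf4, Tnfrsf9 and Tnfrsf18) were higher and 3 (Cd69, Cd44 and Cd27) lower, beside 35.7% and 35.1%. Here Cd44 had opposite directions in the 2 media.

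**Figure D3:**
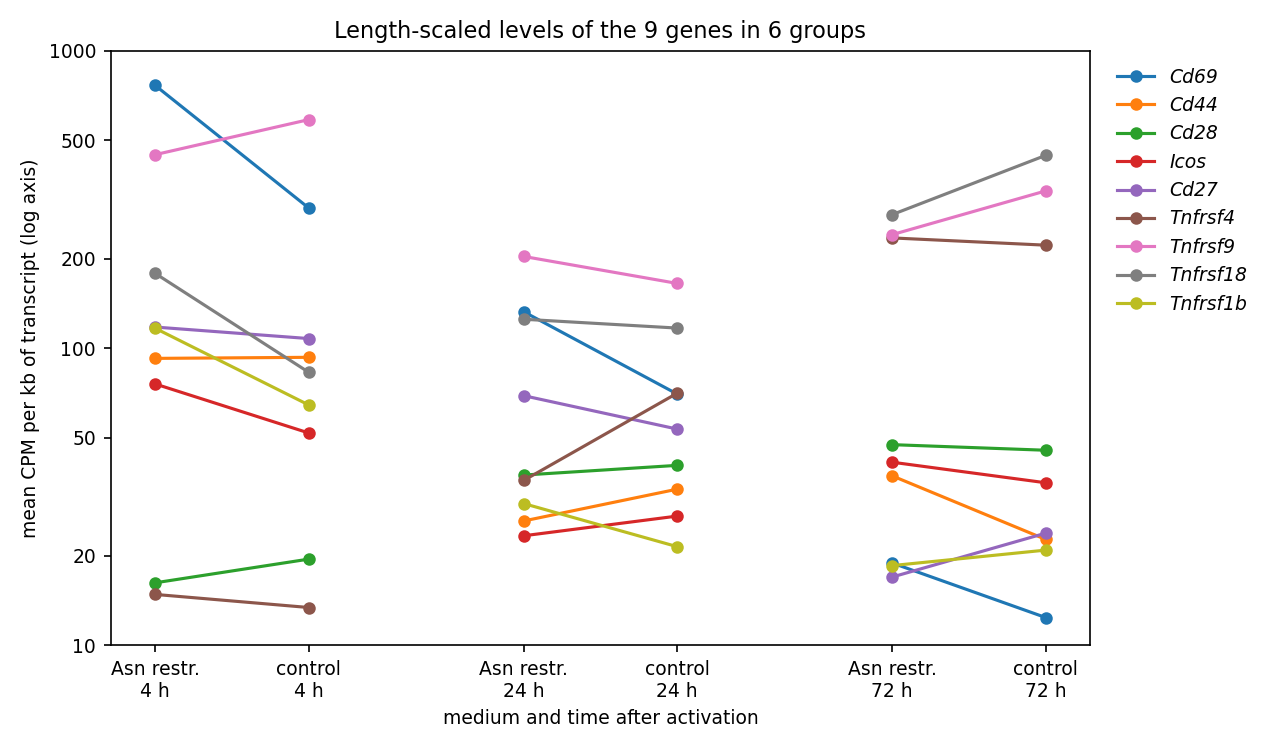
Mean CPM per kb of transcript (log axis), by deposited gene length, of the 9 genes in the 6 groups. Each line joins Asn restriction on the left to control on the right at 1 time. Cd69 leads under Asn restriction at 4 h (764 CPM per kb) and is last in control at 72 h (12.4 CPM per kb), while Tnfrsf4 climbs from the last place at 4 h to the third at 72 h.

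Per kb of transcript, which allows levels of different genes to be set side by side, the leading gene changed with medium and time. At 4 h Cd69 led under Asn restriction with 764 CPM per kb, followed by Tnfrsf9 with 447, whereas in control Tnfrsf9 led with 587 and Cd69 followed with 296. At 24 h Tnfrsf9 led in both media, with 203 CPM per kb under Asn restriction and 165 in control. At 72 h the order of the first 3 by deposited gene length was Tnfrsf18, Tnfrsf9 and Tnfrsf4 in both media. They had 281, 241 and 235 CPM per kb under Asn restriction and 445, 338 and 222 in control. These 3 receptors then held 80.8% of the summed length-scaled level of the 9 genes under Asn restriction and 86.2% in control, against 35.1% and 51.9% at 4 h. Cd69 went the other way, with 41.9% of the sum at 4 h under Asn restriction and 22.5% in control, but 2.02% and 1.07% at 72 h. Close places depend on the gene length used. By the length that all annotated exons cover, Tnfrsf4 (187.4 CPM per kb) stood just above Tnfrsf9 (187.0) under Asn restriction at 72 h. By that length Cd28 (11.5) and not Tnfrsf4 (11.8) was last under Asn restriction at 4 h.

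Over the 18 libraries, the genes with the most similar pattern to each of the 9 were sought among 8464 genes averaging 10 CPM or more, by Pearson's r of log2 CPM. The libraries fall into 6 groups, so r mainly reflects the 6 group means, and it is given as a description. Cd69 was most like Rab11b (r = 0.997) and Tma16 (0.995), Cd44 most like Mapk6 (0.982) and Ssfa2 (0.975), and Cd28 most like Sept9 (0.988) and Plp2 (0.987). Icos was most like Sytl3 (0.971) and Slamf7 (0.954), and Cd27 most like Tnfsf8 (0.992) and Pitpnm2 (0.989). Tnfrsf4 was most like Aurka (0.996) and Pi4k2b (0.995), Tnfrsf9 like Tle3 (0.973) and Ctss (0.957), Tnfrsf18 like Synj2 (0.974), and Tnfrsf1b like Notch1 (0.996) and Rela (0.991). Among the 9 genes themselves, the most similar pair was Cd69 and Cd27 (r = 0.951) and the most opposed was Cd28 and Tnfrsf1b (r = -0.983). The neighbours Tnfrsf4 and Tnfrsf18 had r = 0.777.

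Ligands of the TNF family and of the CD28 family receptors were followed as a list of 10 genes. The list was not limited to ligands of the receptors described here, since it holds Ltb, whose receptor gene Ltbr was not tested. Of the 10 genes, 8 passed the filter and Cd70 and Tnfsf18 did not. At 4 h 2 were higher and 1 lower under Asn restriction, with a median log2 fold change of -0.08 beside 0.02 over all genes. Of all genes tested, 23.6% were higher and 22% lower at 4 h. The shares were 27.5% and 28% at 24 h, and 25.4% and 23.8% at 72 h. Lta, a soluble ligand of TNF receptors, had 222 ± 7.12 CPM in Asn-restricted libraries and 115 ± 1.30 CPM in control libraries (SD, n = 3 each), Tnf was 1.20-fold higher, and Ltb fell to 0.688 of control. At 24 h 6 of 8 were higher and none lower (median 0.78 beside 0.01). Among them was Ltb, with 149.9 ± 12.2 CPM in Asn-restricted libraries and 60.3 ± 2.64 CPM in control libraries. Icosl, the ligand of ICOS, is counted among the 6 (log2 fold change 1.40, adjusted p = 0.0275), although no group mean exceeded 1.20 CPM. Tnfsf4, also among the 6 (log2 fold change 0.93, adjusted p = 0.00502), had a highest group mean of 4.36 CPM. Cd86, a ligand of CD28 that dendritic cells and other myeloid cells carry, had 3.01 ± 0.553 CPM in Asn-restricted libraries and 1.22 ± 0.132 CPM in control libraries at 24 h. The summed markers of myeloid and dendritic cells moved alike at that time, at 4.19 to 5.18 CPM in Asn-restricted libraries and 2.08 to 2.31 CPM in control libraries, and their part in the Cd86 difference was not tested. At 72 h 3 of 8 were higher and none lower (median 0.19 beside -0.01), with Lta 2.67-fold and Tnf 2.06-fold higher under Asn restriction. Lta and Tnf were thus higher at all 3 times, as Cd69 was.

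The adaptors that TNF receptors recruit were mostly higher at the early times. Of 10 genes, 8 were higher and 1 lower at 4 h under Asn restriction, with a median log2 fold change of 0.56 beside 0.02 over all genes. Among all genes tested, 23.6% were higher and 22% lower at 4 h. At 24 h these shares were 27.5% and 28%, and at 72 h 25.4% and 23.8%. Traf1, which is itself induced by activation, had 789 ± 8.18 CPM in Asn-restricted libraries and 389 ± 7.63 CPM in control libraries, and Map3k14, the NF-kB-inducing kinase, 227 ± 6.29 and 113 ± 4.76 CPM. At 24 h 7 were higher and 2 lower (median 0.38 beside 0.01), Traf1 by 2.06-fold, while Siva1, which binds the tail of CD27, fell to 0.517 of control. At 72 h 1 was higher (Birc3) and 3 lower, among them Map3k14, which had 38.6 ± 0.814 CPM in Asn-restricted libraries and 88.7 ± 12.2 CPM in control libraries, and Traf1 at 0.850 of control (median -0.09 beside -0.01).

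Other genes of the TNF receptor superfamily went both ways. Of 19 genes 16 were tested, and at 4 h 2 were higher and 4 lower, at 24 h 5 and 6, and at 72 h 2 and 8, with medians of 0.21, 0.04 and -0.27 beside 0.02, 0.01 and -0.01 over all genes. Of all genes tested, 23.6% were higher and 22% lower at 4 h. The shares were 27.5% and 28% at 24 h, and 25.4% and 23.8% at 72 h. Fas, the death receptor, was 2.08-fold higher under Asn restriction at 4 h and 4.22-fold at 24 h, where it had 29.0 ± 2.63 CPM in Asn-restricted libraries and 6.90 ± 1.49 CPM in control libraries, but it was lower at 72 h (log2 fold change -0.68, adjusted p = 5.58e-06). The lower genes at 4 h included Tnfrsf22 at 0.430 of control, Tnfrsf21 (death receptor 6) at 0.491 and Tnfrsf10b, a receptor for TRAIL, at 0.593. Tnfrsf8 (CD30) was 2.26-fold higher at 72 h, with 297 ± 5.61 and 132 ± 4.81 CPM. Tnfrsf26 was 2.77-fold higher at 24 h and fell to 0.293 of control at 72 h, and Tnfrsf25 (death receptor 3) changed in the same directions, 2.21-fold higher and then 0.467 of control.

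The other CD28 family receptors on the list are inhibitory. At 4 h 2 of 3 were higher under Asn restriction, at 24 h all 3 were lower, and at 72 h 2 were higher and none lower (medians 0.56, -0.95 and 0.21, beside 0.02, 0.01 and -0.01 over all genes). Among all genes tested, 23.6% were higher and 22% lower at 4 h. At 24 h these shares were 27.5% and 28%, and at 72 h 25.4% and 23.8%. Ctla4, which lies between Cd28 and Icos and competes with CD28 for ligands, had 12.7 ± 1.09 CPM in Asn-restricted libraries and 7.69 ± 0.964 CPM in control libraries at 4 h. At 24 h it had 12.7 ± 0.717 and 56.2 ± 0.971 CPM, and at 72 h 347 ± 14.02 and 154 ± 11.5 CPM. Btla was 1.47-fold higher at 4 h, at 0.517 of control at 24 h and 1.16-fold higher at 72 h, and Pdcd1 (PD-1) was at 0.811 of control at 24 h. The signs of Ctla4 and Btla were those of Icos at each time.

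Of 14 genes of proximal CD28 signalling, 8 were higher and 5 lower at 4 h, 5 and 5 at 24 h, and 5 and 6 at 72 h, with medians of 0.22, -0.07 and -0.05 beside 0.02, 0.01 and -0.01 over all genes. Of all genes tested, 23.6% were higher and 22% lower at 4 h, 27.5% and 28% at 24 h, and 25.4% and 23.8% at 72 h. Malt1, a partner of Bcl10 in NF-kB activation, was 2.09-fold higher at 4 h and Bcl10 1.60-fold. Akt1 was at 0.511 of control at 4 h and 0.5995 at 24 h and 1.53-fold higher at 72 h.

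Among 11 other activation markers, 6 were higher and 2 lower at 4 h, 6 and 5 at 24 h, and 4 and 3 at 72 h (medians 0.28, 0.13 and 0.07 beside 0.02, 0.01 and -0.01 over all genes, of which 23.6% and 22%, 27.5% and 28%, and 25.4% and 23.8% were called higher and lower at these times). Slamf1 had 760.4 ± 7.14 CPM in Asn-restricted libraries and 341 ± 6.73 CPM in control libraries at 4 h. Cd5, a restraint on antigen receptor signalling, was at 0.536 of control at 24 h, and Slc3a2, the heavy chain of amino acid transporters, was 1.89-fold higher. Tfrc, the transferrin receptor that dividing cells carry, had 1624 ± 56.2 CPM in Asn-restricted libraries and 494 ± 19.5 CPM in control libraries at 72 h, whereas at 24 h it was lower under Asn restriction (log2 fold change -0.87, adjusted p = 1.67e-16). Cd226, an adhesion receptor, was lower at all 3 times, at 0.676, 0.525 and 0.619 of control.

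**Figure D4:**
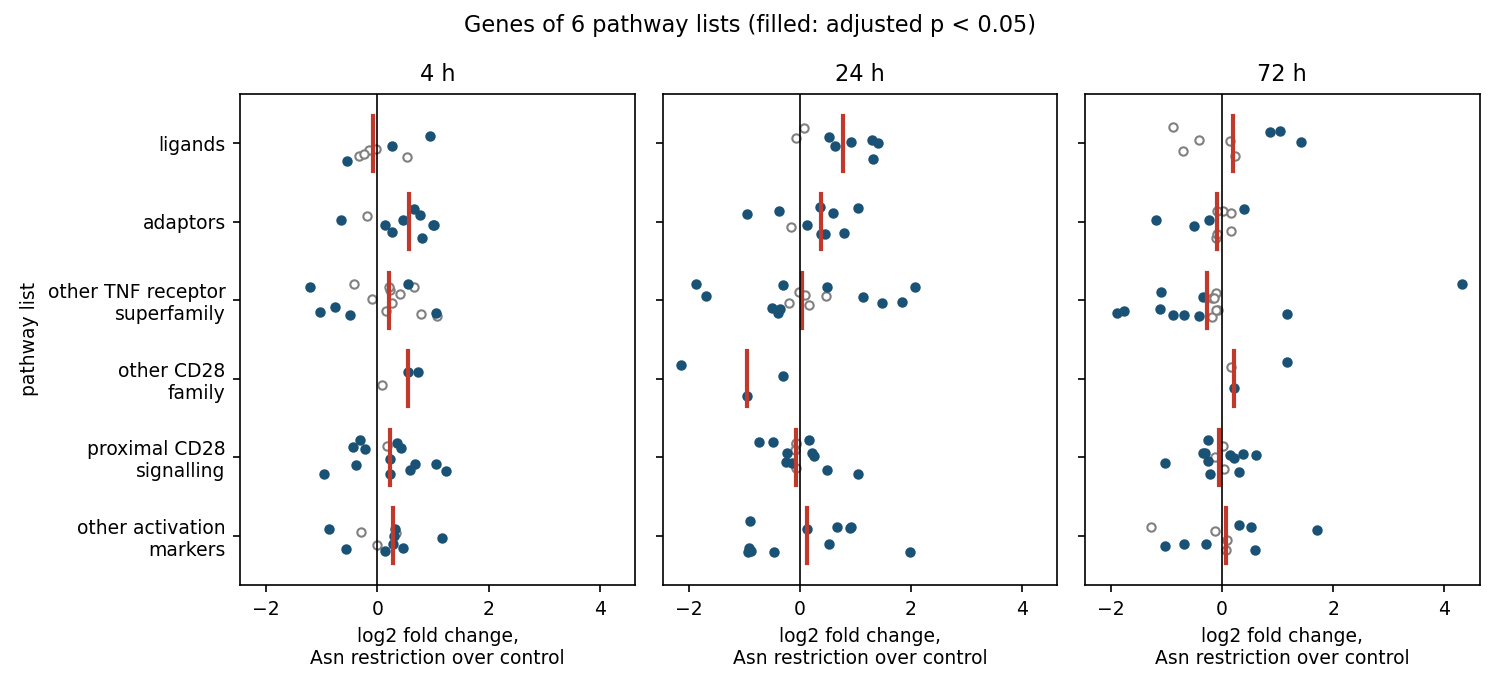
Log2 fold change of Asn restriction over control (x axis) for each tested gene of the 6 pathway lists (y axis) at 4, 24 and 72 h, with filled points for an adjusted p under 0.05 by edgeR and a red bar for the median of the list. The adaptor median lies at 0.56 at 4 h and -0.09 at 72 h, the 3 inhibitory CD28 family genes lie left of 0 at 24 h, and the point farthest right at 72 h, Tnfrsf19, had at most 0.920 CPM in any group.

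Other cell types were gauged by marker lists, summed as CPM of gene counts. The B cell list stood at 1.46 to 9.57 CPM over all libraries, the NK cell list at 0.126 to 6.58 CPM and the myeloid and dendritic list at 0.252 to 14.8 CPM. Of their 16 genes, 15 were at 0 in at least 1 library, the exception being Cd79b. At 4 h the myeloid and dendritic list, mainly Itgax, stood at 13.0 to 14.8 CPM in Asn-restricted libraries and 10.3 to 13.5 CPM in control libraries, and at 24 h at 4.19 to 5.18 and 2.08 to 2.31 CPM. The CD4+ and regulatory T cell list moved with the medium, at 4 and 72 h in the directions of Tnfrsf18, which regulatory T cells also carry. It stood at 72.8 to 82.6 CPM in Asn-restricted libraries and 46.9 to 53.4 CPM in control libraries at 4 h, at 61.8 to 69.2 and 36.9 to 39.8 CPM at 24 h, and at 76.6 to 82.8 and 155 to 159 CPM at 72 h. Its sum rests on Ikzf2 and Zbtb7b, since the defining markers Cd4 and Foxp3 had at most 31 and 38 counts in any library, beside at least 1056 for Tnfrsf18. The summed level of the CD8 genes and general T cell markers was 1109 to 1165 CPM in Asn-restricted libraries and 1409 to 1439 CPM in control libraries at 4 h. It was 1231 to 1279.8 and 1037 to 1049 CPM at 24 h, and 713 to 723 and 1099.7 to 1119.7 CPM at 72 h. The part of these lists in the results was not tested. In bulk RNA, a smaller number of cells that express a gene and less of its RNA per cell cannot be told apart.

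All fold changes above are relative to the bulk of genes, since TMM scaling centres on it. With scaling by the 63 ERCC spike-ins the median log2 fold change over all genes was -0.11 at 4 h, 0.25 at 24 h and 0.31 at 72 h, against 0.02, 0.01 and -0.01 with TMM. The 9 genes were then called 3 higher and 1 lower at 4 h, 4 and 1 at 24 h, and 3 and 0 at 72 h, where with TMM they were 4 and 2, 4 and 3, and 3 and 4. Of all called genes, 30.7%, 77.5% and 84.9% were then higher, against 51.7%, 49.5% and 51.6% with TMM. Library totals of gene counts alone gave 37.7%, 60.1% and 40.0%. Cd69 at all 3 times, Tnfrsf9, Tnfrsf18 and Tnfrsf1b at 4 h, Tnfrsf4, Tnfrsf1b, Tnfrsf9 and Cd27 at 24 h, and Cd44 at 72 h kept direction and call under both of these scalings. Calls lost with the spike-ins were those of Cd28 and Icos at 4 h, Cd44 and Icos at 24 h, and Cd27, Tnfrsf9, Tnfrsf18 and Tnfrsf1b at 72 h, and library totals alone lost Icos at 24 and 72 h and added Cd44 at 4 h (-0.13, adjusted p = 0.0291) and Tnfrsf18 at 24 h. Whether spike-ins were added per cell or per amount of RNA is not stated, so the spike-in scaling cannot be read as RNA per cell.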

How the data were processed

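RNA sequencing of mouse CD8+ T cells was deposited as 1 table for 18 libraries. Per the labels, the submitters listed Trim Galore 0.60, STAR 2.7, RSEM 1.31 and the builds hg19 and mm10 without roles, and strandedness of counting is not given in the sources used here. The values analysed are the raw counts in whole numbers that the authors deposited per gene. The table also holds a normalized signal per library that the authors deposited with group means of it, log2 fold changes of the authors' own comparisons and their p-values as deposited, none of which was used. Gene lengths deposited by the authors served to scale levels per kb.

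Of 18585 lines, 63 were ERCC spike-ins and entered neither library sizes nor tests. Counts of 18522 genes were filtered with filterByExpr (14871 kept), scaled by TMM and fitted with edgeR 4.0.16 in R 4.3.3 as 6 group means with 12 residual degrees of freedom. Quasi-likelihood F tests compared the media at each time, the times within each medium and the change of the medium difference between times, with Benjamini-Hochberg adjustment over all genes tested. SE is the absolute log2 fold change divided by the square root of F. Levels are CPM with TMM factors, and log2 CPM used a prior count of 2. Positions are from GENCODE M21 (GRCm38) and promoter windows from RefSeq. The procedure was tested on simulated data with 200 changed genes. The median library held 18239124.5 counts with spike-ins included, and the 9 genes had at least 167 counts in each library. Relative counting error is largest for Tnfrsf4 at 4 h, which had 167 to 308 counts per library. Alternatives were DESeq2 1.42.0, limma 3.58.1 (voom), other scalings and filters, fewer libraries and a replicate block.

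The text names all 9 genes, for each of 6 pathway lists up to 4 called genes per time with the largest fold change among those reaching 5 CPM on average in some group, and for each of the 9 genes the 2 most alike among genes averaging 10 CPM. Some genes that this rule would name are not reported here. Tnfrsf19 was named after its values were seen. The 9 genes and all lists were chosen with earlier results of these data known, so their counts are descriptions.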

Additional observations from a re-analysis of the deposited data

Results flagged for a closer look

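The response to Asn restriction differed between times for 8 of the 9 genes, by edgeR's test of the change in the log2 fold change of Asn restriction over control. Of all genes tested, 18.5% passed it upwards and 17.8% downwards between 4 and 24 h, and 29.5% and 27.7% between 24 and 72 h. At 24 h against 4 h the change was -0.45 for Cd69, -0.34 for Cd44, -0.77 for Icos, -1.12 for Tnfrsf4, -1.004 for Tnfrsf18 and -0.38 for Tnfrsf1b. It was 0.24 for Cd27 and 0.69 for Tnfrsf9, so these TNF receptor family genes moved against the other 6. At 72 h against 24 h it was 1.06 for Cd44, 0.44 for Icos and 1.06 for Tnfrsf4. It was -0.32 for Cd69, -0.86 for Cd27, -0.79 for Tnfrsf9, -0.76 for Tnfrsf18 and -0.65 for Tnfrsf1b. Adjusted p-values were 0.0221 or lower. For Cd44, Icos, Cd27, Tnfrsf4 and Tnfrsf9 the second change had the opposite sign to the first, whereas for Cd69, Tnfrsf18 and Tnfrsf1b both were downward. With spike-in scaling, 1 of the 8 changes between 4 and 24 h (Tnfrsf9) and 5 of the 8 between 24 and 72 h (Cd44, Cd27, Tnfrsf4, Tnfrsf9 and Tnfrsf18) passed the test.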

How the results depend on the processing

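A test counts as changed where it crossed the threshold, or where its sign turned and it passed in either fit. Sign turns of tests that passed in neither fit were not counted. Of 81 tests on the 9 genes (9 comparisons each), none changed with DESeq2 size factors, with the DESeq2 Wald test or with no filter on low counts. At an adjusted p under 0.01, 3 calls were lost, and 8 of 81 changed without TMM factors, 3 when only the libraries of the groups compared were fitted, and 1 each with limma-voom and with a minimum of 10 counts per library. Leaving out each library in turn changed 15 of 594 tests. Spike-in scaling changed 24 of 81. Among these the sign turned for Icos at 24 h (0.012), Tnfrsf1b at 72 h (0.16), Tnfrsf18 at 24 h against 4 h under Asn restriction (0.013) and the change of the Cd44 response between 4 and 24 h (0.028). Spike-in scaling also turned the sign of tests that passed in neither fit, such as Cd27 at 4 h (-0.0074) and Cd28 at 24 h (0.13). It left 3064 genes called between media at 4 h and 4889 at 24 h, against 6783 and 8252 with TMM, and 3 of the 9 genes at 72 h, against 7. For the change in response between 4 and 24 h it left 2774 genes and 1 of the 9, against 5396 and 8, and between 24 and 72 h 5099 genes and 5 of the 9, against 8507 and 8. The cause was not tested. With spike-ins the median over all genes was 0.56 (0.03 with TMM) for 24 h against 4 h under Asn restriction, where 86.0% of called genes were then higher (53.0% with TMM), 0.15 (-0.0031 with TMM) in control (61.4%, against 50.2%) and 0.42 (0.05 with TMM) for the change between 4 and 24 h (86.5%, against 50.9%). Without TMM factors those shares were 72.7%, 56.4% and 77.7%, and for 72 h against 24 h under Asn restriction 38.2%, against 49.8%, and for the change between 24 and 72 h 38.9%, against 51.6%. Without TMM factors 29 of 54 group levels moved by more than 1 SD, by -11.6% to 11.1%.

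Leaving out libraries in turn, 6 to 7, 6 to 8 and 6 to 7 of the 9 genes were called between media at 4, 24 and 72 h. Replicate numbers are not known to pair libraries. Same-numbered libraries of the 2 media correlated at -0.225 to 0.0465 in their deviations from group means, and differently numbered ones at -0.205 to 0.232. As each deviation is from a mean of only 3 libraries, these values cannot decide whether libraries were paired. A replicate block changed 1 call, Cd28 at 72 h against 24 h in control (0.10, adjusted p = 0.398). With 3 libraries of 1 experiment per group, differences under about the spread of libraries are not resolved, and weakly expressed genes such as Cd86 are limited by depth.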
